A study of Rattus norvegicus with 3 samples.

Results

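Genes of the cell division cycle and inhibitors of the cyclin-dependent kinases (CDKs) were examined in rat granulosa cells, the somatic cells that surround the oocyte in the ovarian follicle. The set was a list of 50 gene symbols grouped by function. All probe sets that the platform annotation assigns to 1 of these symbols alone were taken, and 47 of the 50 genes were found through 62 probe sets, out of 14218 genes and 31099 probe sets on the array. Rrm2, Tpx2 and Btg2 were not analysed here.

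Cells enter division when D-type cyclins with Cdk4 or Cdk6, and then cyclin E with Cdk2, phosphorylate the retinoblastoma family of pocket proteins and release E2F factors, which switch on the genes of DNA replication. A later wave of genes, read through the CHR promoter element, brings cyclin B, Cdk1 and the machinery of mitosis, while the Cdkn1 and Cdkn2 proteins hold the kinases in check. Granulosa cells divide under follicle-stimulating hormone as the follicle grows, and they leave the cycle after the ovulatory surge of luteinizing hormone (LH), when they differentiate into luteal cells.

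The cells came from Sprague-Dawley rats, female and 24 to 25 days of age, that had been given pregnant mare's serum gonadotropin (PMSG) 48 h earlier, a hormone that drives follicles to the preovulatory stage. All 3 groups were cultured in Opti-MEM medium with gentamycin, insulin, transferrin and selenium, and all were infected at 50 pfu per cell with an adenovirus that was removed after 2 h. The first group received Ad-GFP, the virus carrying green fluorescent protein, and no stimulus. The second received Ad-GFP and, from 24 h after infection, 10 uM forskolin (FSK, an activator of adenylyl cyclase) with 20 nM phorbol 12-myristate 13-acetate (PMA, an activator of protein kinase C) for 6 h, to mimic the LH-like hormone hCG. The third received Ad-NFIL3, the virus carrying the leucine zipper repressor NFIL3, and the same FSK/PMA. Both viruses drive their gene from a promoter not given in the sources used here. Each group had 1 Affymetrix rat array, made from RNA pooled over 3 experiments, so there were no replicate arrays, no test was possible, and each difference is one between pools.

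Values are MAS5 signals on a linear scale, and 126, the median of all signals, was used as a floor below which a signal was taken as not measured. A gene was taken as measured if either array of a comparison exceeded the floor, and a difference counted from 2-fold on. Where a gene has several probe sets, the brightest stands for it. Disagreement between probe sets of the same gene gave a technical spread of 0.33 on the log2 scale with FSK/PMA and 0.23 with NFIL3 (robust SD over 2549 and 2500 genes), and of 0.37 and 0.34 for genes whose brighter probe set lay under 4 times the floor. This spread holds no difference between cultures. Of the 47 cell cycle genes, 34 had a mean signal under 4 times the floor and 6 lay below the floor on every array (Ccnd1, Cdk6, Ccne1, E2f1, Bub1b and Birc5).

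As a check of the labels, Nfil3 had signals of 564, 1321 and 5882 on the unstimulated Ad-GFP, stimulated Ad-GFP and stimulated Ad-NFIL3 arrays. Of 13 granulosa cell markers on the array, 12 to 13 were above the floor on each array, with Inha, the inhibin alpha subunit, between 18604 and 29911. With FSK/PMA, 8 of the 13 markers were at least 2-fold lower and 2 higher, against 11.4% and 7.43% of all measured genes. Their summed signal was 99543, 82571 and 54002, lowest on the NFIL3 array. The theca markers Cyp17a1 and Insl3 lay below the floor on all 3 arrays, at 4.36 to 46.2. Of all 10 theca and stroma markers, 3 to 5 were above the floor per array, and their summed signal was 1323, 1075 and 1535. All 4 measured with NFIL3 were higher, but only Dcn, at 201, 196 and 481, passed 2-fold. Of 10 leukocyte markers, 4 to 7 were above the floor, with sums of 2513, 3143 and 3612. The higher sum with FSK/PMA on the Ad-GFP arrays rests largely on Cd14, at 606, 1488 and 1562. Lyz2 went the other way with FSK/PMA, at 1110, 769 and 970. Ptprc, Itgam and Cd3e lay below the floor on all 3 arrays. The red cell marker Hbb read 19442, 18005 and 15376. Among 5 oocyte markers only Zp2 was above the floor, at 891, 406 and 269. The part of these marker shifts in the differences below was not tested.

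With FSK/PMA, the 2 lowest genes of the set were Cdkn1b, a CDK inhibitor gene, and Rbl2, a pocket protein gene, both more than 4-fold lower, and Aurkb, a mitotic kinase gene, was over 2-fold lower. Aurka, another mitotic kinase gene, and Cdkn1a, another CDK inhibitor gene, were more than 3-fold higher, and Myc, Gadd45b, Btg1, Pcna and Mcm6 were 2-fold to 3-fold higher. Of 40 measured genes, 7 (17.5%) were at least 2-fold higher, against 7.43% of all 9395 measured genes, and 3 (7.5%) were at least 2-fold lower, against 11.4% of all. The remaining 30 genes were counted as within 2-fold. For Top2a, Bub1 and Cdc25b among them 1 array lay below the floor, so their sizes are minimums. The median difference of the 40 genes was 0.04 on the log2 scale, and that of all measured genes was -0.10. In total RNA of a culture, fewer cells in a phase of the cycle and less RNA per cell cannot be told apart.

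**Figure D1:**
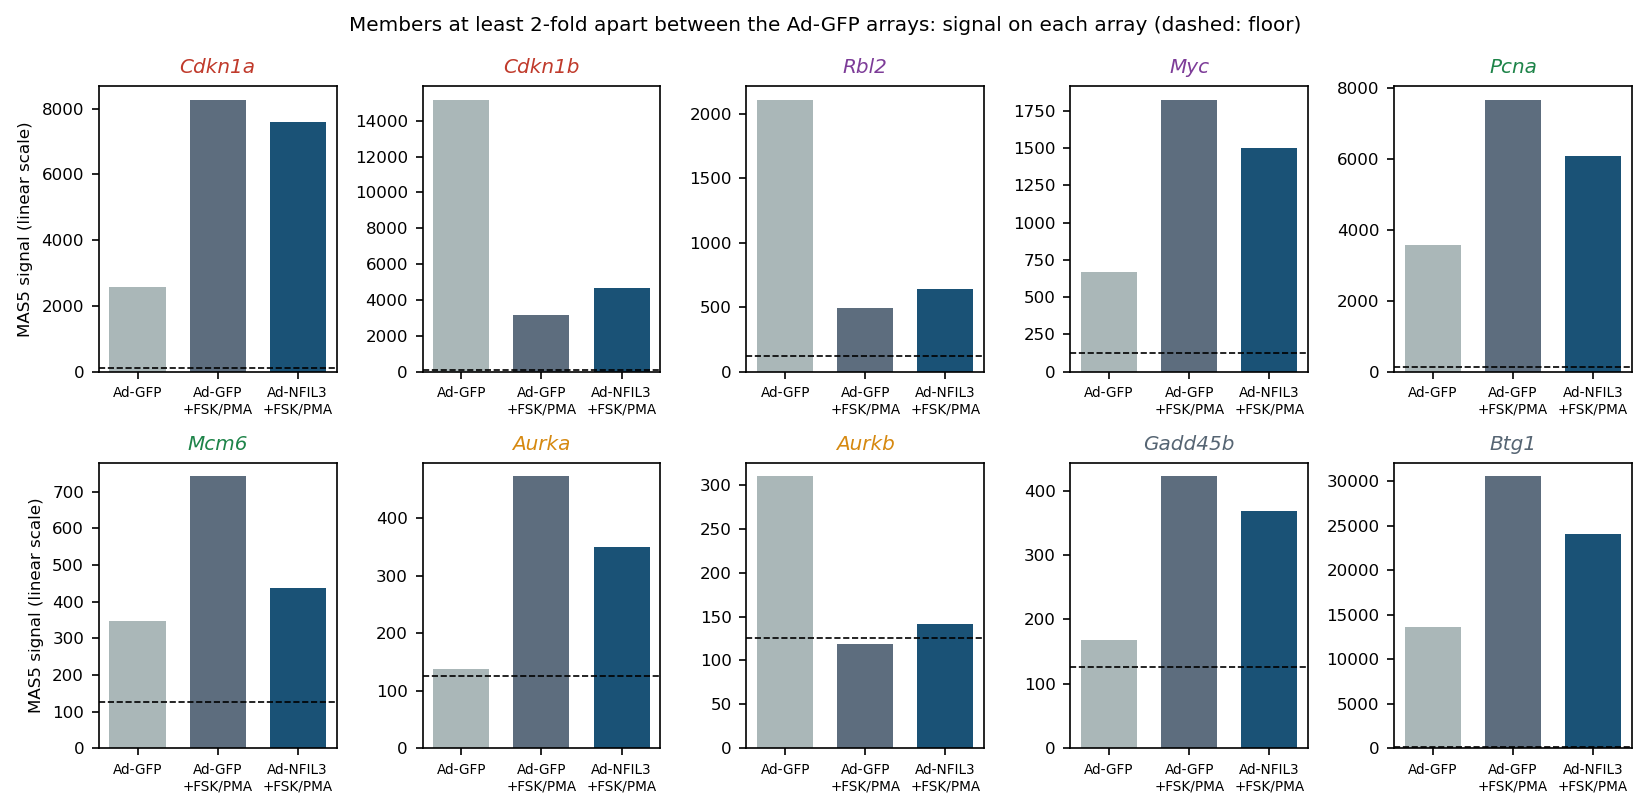
MAS5 signal (linear scale, from 0) on the unstimulated Ad-GFP, stimulated Ad-GFP and stimulated Ad-NFIL3 arrays, 1 bar per array, for the 10 genes at least 2-fold apart between the Ad-GFP arrays; the dashed line is the floor of 126 and title colours mark the genes' roles. Cdkn1b, Rbl2 and Aurkb are tallest without stimulus, and the other 7 genes are tallest on the Ad-GFP array with FSK/PMA.

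The G1 kinases and cyclins differed little. Cdk4, the kinase partner of the D cyclins, had signals of 4391, 4713 and 4782 on the unstimulated Ad-GFP, stimulated Ad-GFP and stimulated Ad-NFIL3 arrays. Ccnd2, the D cyclin through which FSH drives granulosa cell division, had 2084, 2084 and 2666, so that its level was alike on both Ad-GFP arrays and highest with NFIL3. Ccnd3, another D cyclin, read 366, 609 and 564, a 1.66-fold higher signal with FSK/PMA. Cdk2, the partner of cyclin E and cyclin A, read 391, 429 and 496, and its second probe set read 323, 329 and 291, which goes the other way with NFIL3. All 4 genes lay within 2-fold in every comparison, and the small differences of Ccnd2 and Cdk4 with FSK/PMA changed sign under quantile normalisation and cyclic loess. Ccne2, a cyclin E gene, stood near the floor at 135, 131 and 221, and its second probe set read 148, 138 and 107, which goes the other way on the NFIL3 array. All 3 probe sets of Ccnd1 were below the floor on every array, at 20.1 to 69.9, and Cdk6 and Ccne1 were below it too, at 7.99 to 61.6 and 17.2 to 114.

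Among the CDK inhibitors the Cdkn1 genes for the proteins known as p21 and p27 differed in opposite directions. Cdkn1b, which encodes p27, the inhibitor known to accumulate as granulosa cells luteinize, had signals of 15176, 3161 and 4664, and was 4.80-fold lower with FSK/PMA. From the lowest, Cdkn1b had rank 99 among 9395 measured genes. Its second, dimmer probe set read 283, 58.9 and 100, below the floor on both stimulated arrays, and was at least 2.25-fold lower. Both probe sets were thus highest without stimulus, and the mean of both gave -1.72 in place of -2.26 on the log2 scale.

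Cdkn1a, which encodes p21, the p53-inducible inhibitor, had signals of 2564, 8273 and 7590, and was 3.23-fold higher with FSK/PMA. Its second probe set read 282, 1363 and 1225, which was 4.84-fold higher. The 2 stimulated arrays were alike and both stood above the unstimulated array. Cdkn1c, the gene of the imprinted inhibitor p57, read 256, 487 and 275. It was 1.90-fold higher with FSK/PMA, and on the NFIL3 array it stood near the unstimulated level. Cdkn2c, an inhibitor of Cdk4 and Cdk6, read 254, 328 and 238, within 1.5-fold in every comparison.

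The pocket proteins hold E2F factors inactive. Rbl2, which encodes p130, the pocket protein of resting cells, had signals of 2109, 495 and 642 and was 4.26-fold lower with FSK/PMA. Rb1, the retinoblastoma gene, read 619, 520 and 472, and Rbl1, which encodes p107, read 251, 263 and 186, so that among the 3 pocket protein genes only Rbl2 passed 2-fold. E2f1, an activating E2F, was below the floor on all arrays at 55.1 to 71.1. Myc, a growth-promoting transcription factor of the immediate response, read 668, 1823 and 1502 and was 2.73-fold higher with FSK/PMA. Rbl2, Rb1, Rbl1 and Myc each rest on 1 probe set, as do Aurka, Aurkb, Pcna, Mcm6, Gadd45b and Btg1. In all, 37 of the 47 genes have 1 probe set.

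Of 10 measured S phase genes, 7 had higher signals with FSK/PMA. Pcna, the sliding clamp of DNA polymerases, had signals of 3559, 7661 and 6084 on the 3 arrays in the order above, and was 2.15-fold higher. Mcm6 read 348, 743 and 438 and was 2.13-fold higher. The Mcm2 to Mcm7 proteins form the ring of the replicative helicase, and all 6 of their genes had higher signals with FSK/PMA than without, by 0.02 to 1.09 on the log2 scale with a median of 0.64. Mcm3 read 143, 249 and 200, Mcm2 read 281, 444 and 485, and Mcm4 read 392, 604 and 372. Mcm5 differed 1.24-fold and Mcm7, at 941, 952 and 970, was alike on all 3 arrays. All 6 kept the higher direction under every alternative that measured them, although a floor at the 75th percentile of all signals left only 3. Pcna was 0.97 and 0.92 on the log2 scale under quantile normalisation and cyclic loess, just under 2-fold.

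The genes of deoxynucleotide supply did not share this direction. Rrm1, the large subunit of ribonucleotide reductase, read 474, 383 and 423. Tyms, thymidylate synthase, read 237, 179 and 150, and Tk1, thymidine kinase, read 242, 181 and 323. By their brightest probe sets these 3 genes were 1.24-fold to 1.34-fold lower with FSK/PMA, and a second probe set of Tk1, at 266, 144 and 167, was 1.84-fold lower. Over all 10 measured S phase genes, 7 lay above and 3 below 0, against 4070 above and 5325 below among all genes, with a median difference of 0.47 on the log2 scale.

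Of the 13 measured genes of G2 and mitosis, 9 were lower with FSK/PMA, and of these only Aurkb was counted past 2-fold. Top2a lay below the floor with FSK/PMA, so its size is a minimum. Mki67, the Ki-67 proliferation antigen, read 259, 193 and 252. Ccnb1 and Ccnb2, the B cyclins that activate Cdk1, read 275, 190 and 253, and 358, 227 and 371, and Cdk1 itself read 302, 211 and 264. All 4 were lowest on the Ad-GFP array with FSK/PMA, 1.35-fold to 1.58-fold below the unstimulated array. Ube2c, the ubiquitin-conjugating enzyme of the anaphase-promoting complex, read 264, 159 and 216, and Cdc20, which activates that complex, read 239, 156 and 120. Top2a, the topoisomerase that untangles chromosomes, read 193, 123 and 183, at least 1.53-fold lower with FSK/PMA, and the polo-like kinase gene Plk1 read 186, 145 and 118. A second measured probe set of Ccnb1, of Top2a and of Cdc20 was lower too.

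The Aurora kinase genes were the exceptions in size. Aurka, the kinase of the spindle poles, had signals of 138, 473 and 350 and was 3.43-fold higher with FSK/PMA. Aurkb, the kinase of the chromosomal passenger complex, read 310, 119 and 142 and was at least 2.46-fold lower. The pair thus differed in opposite directions, each by 1 probe set whose lowest signal was near or below the floor. Another 3 genes near the floor were higher with FSK/PMA: Ccna2, cyclin A, at 133, 213 and 242, the spindle checkpoint kinase gene Bub1 at 124, 202 and 175, and the phosphatase gene Cdc25b at 112, 158 and 110. Bub1 and Cdc25b were below the floor without stimulus, so they were higher by at least 1.60-fold and at least 1.25-fold. Bub1b, another checkpoint gene, and Birc5, survivin, were below the floor on every array, at 11.9 to 42.3 and 65.7 to 83.9. Cenpf, a kinetochore gene, was above the floor only on the NFIL3 array, at 103, 56.4 and 175. Of 13 measured G2 and mitosis genes, 9 lay below and 4 above 0, against 5325 below and 4070 above among all 9395 genes. Their median was -0.52 on the log2 scale, against -0.10 for all genes, and over the 8 settings that measured them 9 to 10 lay below, with medians from -0.52 to -0.30. Among the lower genes other than Aurkb, single differences ran from -0.36 (Plk1) to -0.73 (Ube2c), that of Top2a being a minimum. The spread between probe sets at such signals is 0.37, so single differences of this size are uncertain.

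Growth arrest genes divided. Gadd45b, an activator of stress kinase signalling, had signals of 168, 422 and 368 and was 2.51-fold higher with FSK/PMA. Its relatives Gadd45a, at 2483, 1575 and 1481, and Gadd45g, at 265, 164 and 137, were 1.58-fold and 1.62-fold lower. Only Gadd45b of these 3 damage-response relatives thus had its lowest signal without stimulus. Btg1, an antiproliferative partner of the CCR4-NOT complex, read 13605, 30604 and 24129 and was 2.25-fold higher; it was 0.92 and 0.80 on the log2 scale, under 2-fold, with quantile normalisation and cyclic loess.

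**Figure D2:**
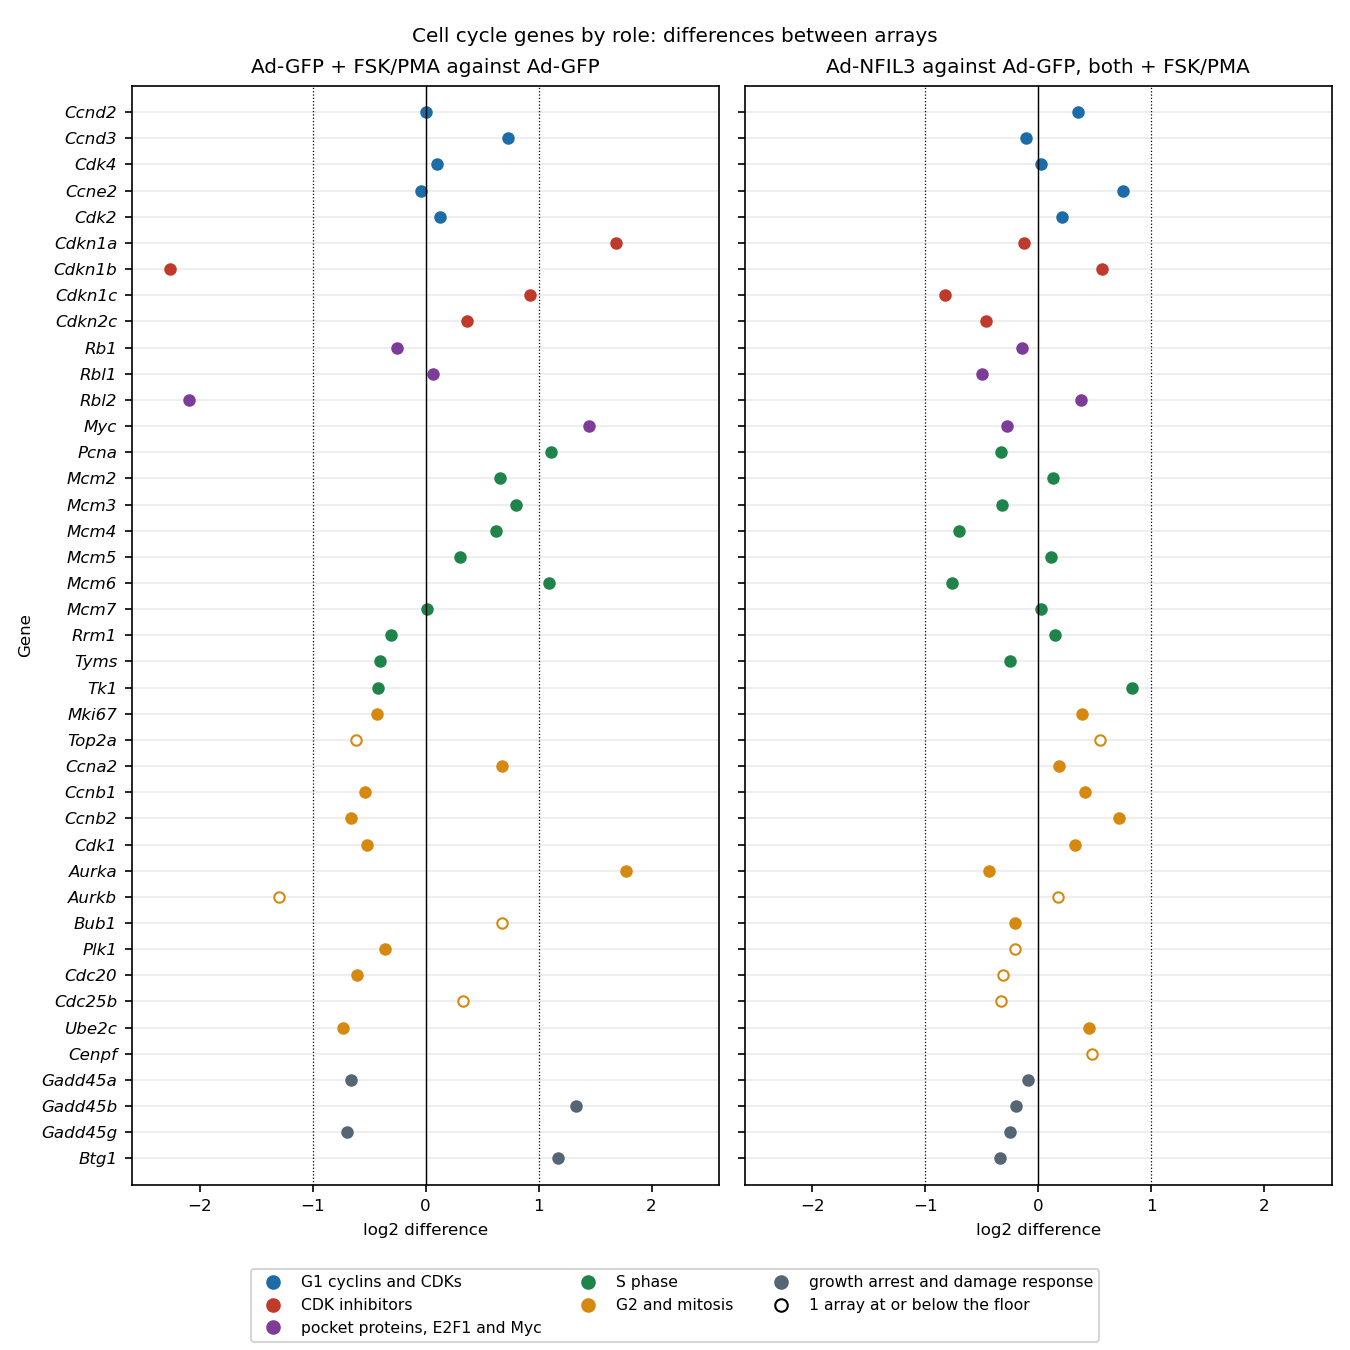
Differences between arrays on the log2 scale for every measured gene, by role; left, the stimulated against the unstimulated Ad-GFP array, right, the Ad-NFIL3 against the stimulated Ad-GFP array. Each point is 1 gene from 1 array per group, open points have 1 array at or below the floor, and dotted lines mark 2-fold; points spread from -2.26 to 1.78 on the left and from -0.82 to 0.83 on the right.

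At a size of 1.5-fold, 14 of 40 genes (35.0%) were higher with FSK/PMA, against 14.9% of all measured genes, and 9 (22.5%) were lower, against 24.0% of all. Ccnd3, Cdkn1c, Mcm2, Mcm3, Mcm4, Ccna2 and Bub1 joined the higher genes, and Top2a, Ccnb2, Cdc20, Ube2c, Gadd45a and Gadd45g joined the lower ones. Scaling the arrays to a common median moved the median of all genes in this comparison from -0.10 to 0.03 and that of the cell cycle genes from 0.04 to 0.18. With that scaling 50.1% of all genes past 2-fold were higher, in place of 39.4%.

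**Figure D3:**
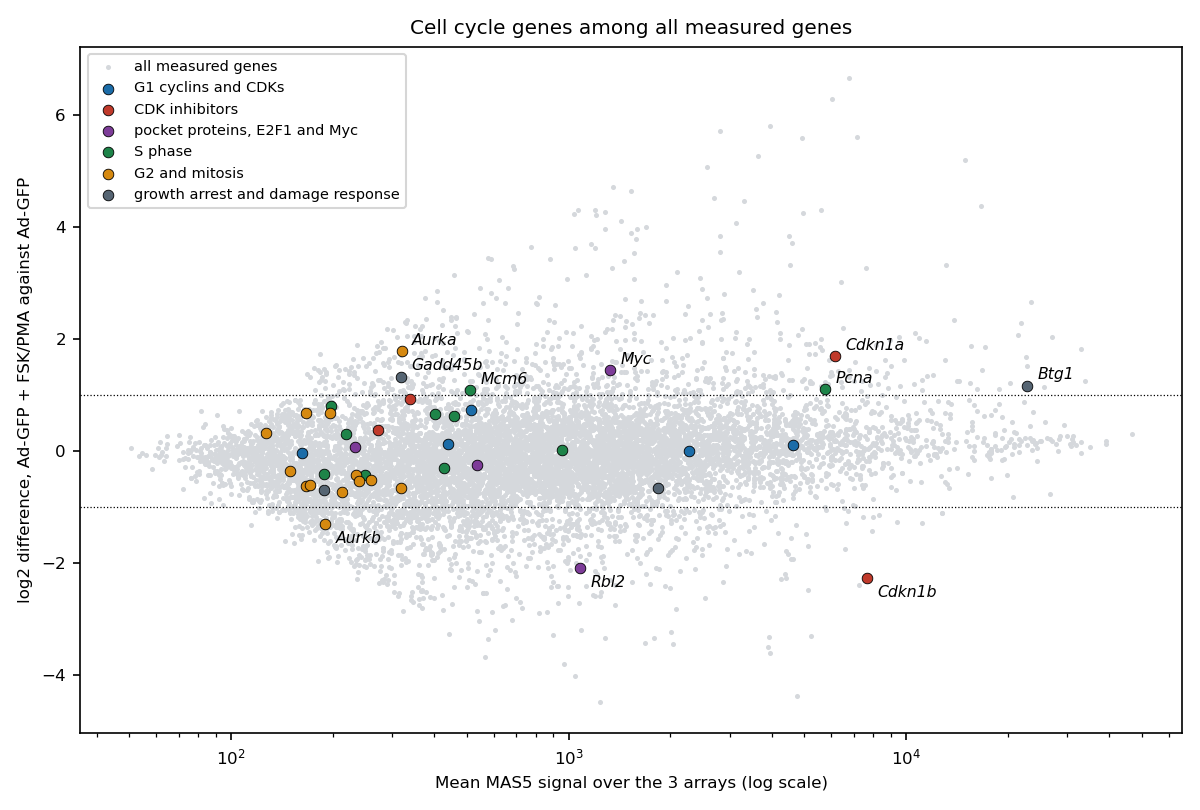
Log2 difference of the stimulated against the unstimulated Ad-GFP array plotted against the mean MAS5 signal over the 3 arrays (log scale), 1 point per measured gene; grey points are all 9395 genes, coloured points the 40 cell cycle genes by role, and dotted lines mark 2-fold. Most mitotic genes lie at low signal just below 0, while Cdkn1a, Cdkn1b, Pcna, Btg1, Myc and Rbl2 are bright.

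The promoter letters of the set were read because S phase and mitotic members had medians of opposite sign with FSK/PMA. RefSeq promoter windows (assembly GRCr8, 250 bases before and 50 after a start site) were given for 37 of the 50 genes, and not for Ccnd1, Ccnd2, Cdk6, Ccne2, Cdkn1c, E2f1, Myc, Mcm4, Rrm2, Ccna2, Aurkb, Tpx2 and Ube2c. Searched on both strands were the E2F letters TTTCCCGC or TTTGGCGC, the CHR letters TTTGAA, the CCAAT box CCAAT (read by NF-Y), the cAMP response element (CRE) TGACGTCA, and the NFIL3 letters TTACGTAA or TTATGTAA. The 5 windows below show the S phase genes past 2-fold (Pcna and Mcm6), a pair of mitotic genes that were lower (Top2a and Cdc20) and one that was higher with FSK/PMA (Bub1). Each is the 250 bases before the start site, 5′ to 3′ on the strand of the gene, which is the minus strand in all 5. Capitals mark the letters found, on either strand. Their positions are chr3:139955821-139956070 for Pcna, chr13:42404353-42404602 for Mcm6, chr10:84473094-84473343 for Top2a, chr5:137255800-137256049 for Cdc20 and chr3:135504922-135505171 for Bub1.

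Pcna: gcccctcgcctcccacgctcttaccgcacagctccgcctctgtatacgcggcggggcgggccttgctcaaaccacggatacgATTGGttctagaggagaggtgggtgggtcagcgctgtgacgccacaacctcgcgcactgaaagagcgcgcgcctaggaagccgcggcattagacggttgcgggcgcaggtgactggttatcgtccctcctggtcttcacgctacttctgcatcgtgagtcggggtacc
Mcm6: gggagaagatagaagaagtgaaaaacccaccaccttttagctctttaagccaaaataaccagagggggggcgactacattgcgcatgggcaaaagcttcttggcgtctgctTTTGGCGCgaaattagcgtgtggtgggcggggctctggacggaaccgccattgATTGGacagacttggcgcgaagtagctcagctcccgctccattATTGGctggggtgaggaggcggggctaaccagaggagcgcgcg
Top2a: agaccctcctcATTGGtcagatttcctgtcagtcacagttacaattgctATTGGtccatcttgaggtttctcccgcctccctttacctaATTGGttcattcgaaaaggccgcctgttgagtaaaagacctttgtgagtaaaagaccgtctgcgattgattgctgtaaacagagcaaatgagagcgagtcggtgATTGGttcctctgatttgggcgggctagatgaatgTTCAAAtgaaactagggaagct
Cdc20: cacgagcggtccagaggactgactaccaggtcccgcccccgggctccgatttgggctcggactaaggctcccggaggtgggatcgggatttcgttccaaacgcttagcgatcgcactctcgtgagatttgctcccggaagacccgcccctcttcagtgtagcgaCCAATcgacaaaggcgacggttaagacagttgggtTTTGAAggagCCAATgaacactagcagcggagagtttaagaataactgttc
Bub1: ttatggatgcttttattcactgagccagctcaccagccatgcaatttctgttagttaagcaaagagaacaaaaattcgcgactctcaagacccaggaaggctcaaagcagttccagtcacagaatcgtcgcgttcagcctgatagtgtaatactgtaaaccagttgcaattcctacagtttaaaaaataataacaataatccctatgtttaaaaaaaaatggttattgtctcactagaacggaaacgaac

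In these windows Mcm6 holds an E2F match and CCAAT boxes, Pcna a CCAAT box, Top2a and Cdc20 a CHR match with CCAAT boxes, and Bub1 none of the letters searched. Of 9 S phase genes with a window, 5 held E2F letters (Mcm3, Mcm5, Mcm6, Mcm7 and Tyms), against 1.45% of all 33469 windows. Of 13 G2 and mitosis genes with a window, 9 held CHR letters, against 18.3% of all, and 10 held a CCAAT box, against 37.5%. In Mki67 a CHR match and a CCAAT box share 1 base. CRE letters were in the windows of Mcm5 and Btg2, against 1.83% of all. NFIL3 letters were in 0 of the 37 windows, against 1.01% of all.

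A division of the mitotic genes by these letters was made after their values were seen, so it is a description and no test of the letters. Of the 13 measured mitotic genes, with or without a window, 9 were lower with FSK/PMA, as were 5325 of all 9395 measured genes. All 6 measured genes with CHR letters (Mki67, Top2a, Ccnb2, Cdk1, Plk1 and Cdc20) were lower with FSK/PMA, by 0.36 to 0.66 on the log2 scale. Without a window were Aurkb and Ube2c, which were lower, and Ccna2, which was higher. Of the 4 measured genes with a window but without these letters, Aurka, Bub1 and Cdc25b were higher and Ccnb1 was lower. Bub1 and Cdc25b lay below the floor without stimulus, and Top2a lay below it with FSK/PMA. Outside the mitotic genes, CHR letters were in the windows of Mcm2, which was higher by 0.66, and of Rbl2, which differed by -2.09. A match shows only that the letters are there, and some windows start at a downstream start site. That of Aurka lies 2121 bases inside the gene's outermost start, that of Birc5 4777 and that of Ccnd3 89324. Birc5 is among the mitotic genes counted above with CHR letters and a CCAAT box.

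Other genes of the pathway were read from 3 lists. Of 21 measured S phase genes outside the set, 2 were at least 2-fold higher and 2 lower with FSK/PMA. Of all genes, 7.43% were higher and 11.4% lower by that size. The median of the 21 genes was -0.27. Gmnn, which encodes geminin, the inhibitor of replication licensing, had signals of 217, 5006 and 2849 and was 23.0-fold higher; its second probe set, below the floor without stimulus, read 68.0, 190 and 171. Rpa2 and Rpa1, subunits of the single-strand DNA binding complex, differed in opposite directions, at 445, 2078 and 1882 and at 738, 232 and 273. Cdc45, a helicase cofactor, read 497, 192 and 403. Of the 21 genes of this wider list 14 lay below 0, against 5325 of all 9395 genes, and its median was -0.15 with scaling to a common median and -0.17 with quantile normalisation and cyclic loess.

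Among 20 measured mitotic genes outside the set, 14 lay below 0 with FSK/PMA, against 5325 of all 9395 genes. The median of the 20 was -0.26, against -0.10 for all genes. At least 2-fold higher were 2 and lower 1, against 7.43% and 11.4% of all genes. The median was -0.09 with scaling to a common median, -0.10 with quantile normalisation and -0.11 with cyclic loess. Pttg1, securin, read 547, 188 and 256 and was 2.90-fold lower. Kif22, a chromosome-arm kinesin, read 280, 791 and 565 and was 2.82-fold higher, and Lmnb1, lamin B1, read 1191, 2625 and 2046 and was 2.20-fold higher. Kif20a, a kinesin of cytokinesis, was 1.67-fold higher.

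**Figure D4:**
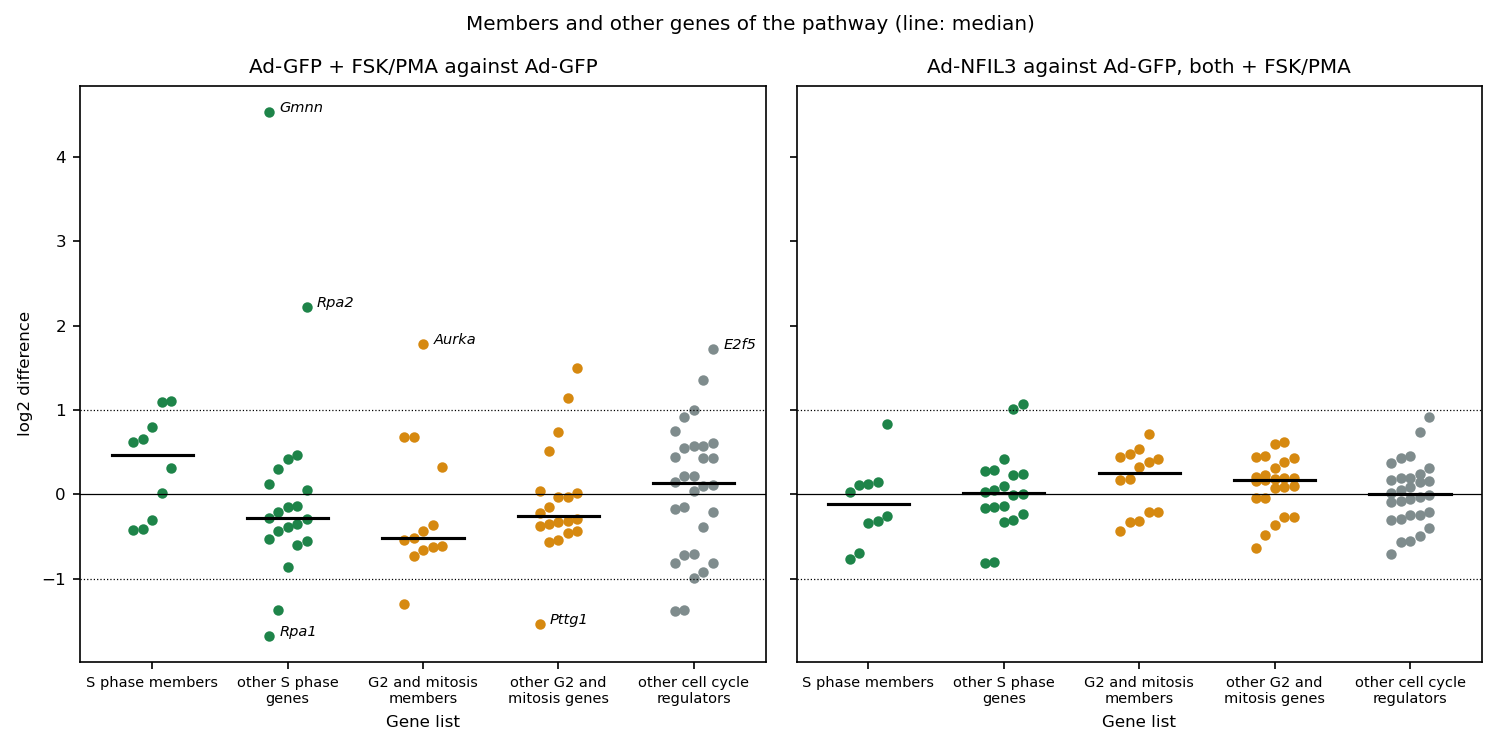
Log2 differences of S phase and mitotic members beside other genes of the pathway, 1 point per measured gene, with a line at each median; left, the stimulated against the unstimulated Ad-GFP array, right, the Ad-NFIL3 against the stimulated Ad-GFP array, with dotted lines at 2-fold. With FSK/PMA the medians are 0.47 and -0.27 for S phase members and other S phase genes and -0.52 and -0.26 for mitotic members and other mitotic genes.

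With NFIL3, none of the cell cycle genes reached 2-fold at the floor used. Here the Ad-NFIL3 array was set against the stimulated Ad-GFP array, which addresses the effect of the repressor during the stimulus. Of 41 measured genes, 0 were at least 2-fold higher, against 1.34% of all 9397, and 0 were at least 2-fold lower, against 0.958% of all. For 6 of the 41 genes 1 array lay below the floor, so their sizes are minimums. Cenpf, at 56.4 and 175, was at least 1.39-fold higher. It passed 2-fold with the floor at the 25th percentile and without a floor. At 1.5-fold, 3 genes (7.32%) were higher, against 6.81% of all, and 3 (7.32%) were lower, against 4.25% of all. The median of the set was -0.09 on the log2 scale and that of all measured genes was 0.03.

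The 3 lower genes were Cdkn1c, Mcm6 and Mcm4, at 1.77-fold, 1.70-fold and 1.62-fold. Each was higher with FSK/PMA than without on the Ad-GFP arrays and, on the NFIL3 array, stood within 1.3-fold of the unstimulated level. The 3 higher genes were Tk1, Ccne2 and Ccnb2, at 1.78-fold, 1.68-fold and 1.64-fold. The other probe sets of Tk1 differed by 0.21 and by at least 0.48 on the log2 scale, against 0.83 for the brightest. The second probe set of Ccne2, below the floor on the NFIL3 array, was at least 1.10-fold lower. Both comparisons share the Ad-GFP array with FSK/PMA, so a high or low signal on that array moves both in opposite directions.

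By role, 9 of 14 measured G2 and mitosis genes lay above 0 with NFIL3, against 5152 of all 9397 genes, with a median of 0.25. Of 24 other mitotic genes 17 did, with a median of 0.17. With scaling to a common median, 9 of 22 other mitotic genes lay above 0, with a median of -0.03, against 2554 of all 9347 genes. All 4 growth arrest genes lay below 0, by 0.09 to 0.34. Cdkn1a and Aurka were 1.09-fold and 1.35-fold lower with NFIL3, and Cdkn1b and Rbl2 were 1.48-fold and 1.30-fold higher. Among the other S phase genes, Cdc45 was 2.10-fold and Rfc5, a clamp loader subunit, 2.02-fold higher; dimmer probe sets of Cdc45, below the floor on the stimulated Ad-GFP array, were higher by at least 0.38 and at least 0.48, and that of Rfc5 differed by -0.46 on the log2 scale. Neither reached 2-fold under the 3 other scalings. Scaling to a common median moved the median of all genes from 0.03 to -0.20 and that of the set from -0.09 to -0.33. With that scaling Cdkn1c passed 2-fold at -1.06, all 6 Mcm genes lay below 0 in place of 3, and the median of mitotic members was 0.05. Of all 9347 genes measured with that scaling, 6793 lay below 0.

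Ad-NFIL3 with FSK/PMA was also set against Ad-GFP alone. Of 40 measured genes, 4 were at least 2-fold higher (Cdkn1a 2.96-fold, Aurka 2.54-fold, Myc 2.25-fold and Gadd45b 2.19-fold), against 6.52% of all genes. The 3 at least 2-fold lower were Rbl2 at 3.28-fold, Cdkn1b at 3.25-fold and Aurkb at 2.19-fold, against 9.05% of all. Pcna, Btg1 and Mcm6 were 1.71-fold, 1.77-fold and 1.26-fold higher here. This comparison shares an array with each of the others.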

How the data were processed

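Total RNA of 3 groups was measured on 1 Affymetrix rat array each. The deposited values are MAS5 signal intensities on a linear scale, per the submitters' processing notes (version not given in the sources used here), and no detection calls entered the work. The authors' columns had 2% trimmed means of 500.2, to which all arrays were scaled again. Signals were floored at 126 and log2 was taken. Subtraction of mismatch probes by MAS5 leaves dim signals imprecise.

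The platform annotation named 1 gene for 20832 probe sets, more than 1 for 436 and no gene for 9831. Of the first, 20764 matched the GRCr8 gene table of RefSeq by Entrez ID, which updated their symbols. Promoters are from RefSeq. Genes, lists, motifs and comparisons were chosen with earlier results of these data known. Every member is named; of other lists, up to 4 genes with the largest difference.

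With 1 array per group no p-value could be computed, and precision is limited by the 3 arrays. Alternatives were 3 scalings (limma 3.58.1 for quantile and cyclic loess), 3 floors, 2 probe set rules and a 1.5-fold size. The steps were run in Python 3.11.15 and R 4.3.3, and tested on simulated data with large differences put into bright genes only. Recovery of differences in dim genes, or near 2-fold, was not covered by that test.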

Additional observations from a re-analysis of the deposited data

How the results depend on the processing

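No paired analysis was possible because each group has 1 array. Of 130 differences of named genes past 2-fold under the alternatives, 0 changed sign and 5 fell under 2-fold. These were Pcna and Btg1 with quantile normalisation and cyclic loess, and Mcm6 with the floor at the 75th percentile, which lies at 547. Cdkn1b moved to -1.72 with the mean of its probe sets. For those genes with 1 probe set the 2 probe set rules could not change the value, so the 130 are not separate checks. Aurka, Aurkb and Gadd45b were not measured with the floor at the 75th percentile and are not counted there. With FSK/PMA, that floor left 14 measured genes, 4 of them higher, and the 1.5-fold size gave 14 higher and 9 lower; scaling to a common median gave a median of 0.18. With NFIL3, that scaling gave 1 lower gene and a median of -0.33, the floor at the 25th percentile and log2(signal + 16) each gave 1 higher gene, Cenpf, and the 1.5-fold size gave 3 in each direction. For Ad-NFIL3 with FSK/PMA against Ad-GFP alone, the floor at the 75th percentile gave 2 higher genes and the 1.5-fold size gave 10 higher and 7 lower. The other 65 values of the members' counts and medians stayed within 1.5 times (counts) or 0.1 on the log2 scale (medians). The share of all differing genes that were higher with NFIL3 was 58.3%, and 20.2% with median scaling, 44.8% with quantile normalisation and 42.2% with cyclic loess. Genes past 2-fold with NFIL3 numbered 126 higher and 90 lower over all genes, and 545 and 236 with the floor at the 25th percentile, 36 and 48 with that at the 75th, 48 and 190 with median scaling, and 266 and 133 without a floor. Low signals limit the mitotic genes: 0 of them are measured with the floor at the 75th percentile.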

Other observations

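Other regulators of the cycle differed on both sides with FSK/PMA: 3 of 30 measured genes passed 2-fold upward and 2 downward (4 downward under quantile normalisation and cyclic loess), against 7.43% and 11.4% of all genes, with a median of 0.13 on the log2 scale. E2f5, a repressive E2F that pairs with p130, had signals of 658, 2168 and 1644 on the unstimulated Ad-GFP, stimulated Ad-GFP and stimulated Ad-NFIL3 arrays and was 3.30-fold higher. Btg3, of the family of Btg1, read 2000, 5127 and 3496 and was 2.56-fold higher. Mxi1, a partner of Max that opposes Myc, read 2097, 803 and 761 and was 2.61-fold lower, and Mycn read 325, 119 and 95.6 and was at least 2.58-fold lower. The second probe set of Mxi1 read 366, 251 and 250 and was 1.46-fold lower. Myc, at 668, 1823 and 1502, went the other way. Mxi1 and Mycn were named for their size in this same comparison, so that contrast follows from the choice and is no separate result.

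With NFIL3, 0 of these 30 genes passed 2-fold and the median was 0.00 (-0.22 with scaling to a common median). Cdkn2d, another inhibitor of Cdk4 and Cdk6, had the largest difference, with signals of 245, 272 and 516, and was 1.89-fold higher. Tob1, an antiproliferative relative of the Btg proteins, read 5328, 3256 and 5441 and was 1.67-fold higher, while Mxd1, another Max partner, read 176, 205 and 126 and was at least 1.63-fold lower.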
